A study of Mus musculus with 4 samples.

Results

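The microRNA genes numbered below 1000, let-7 genes included, were examined in an RNA immunoprecipitation experiment (RIP-seq) on AML12, an established line of mouse hepatocytes. Members were the entries of the deposited TPM table whose symbol begins with Mirlet7, or with Mir and a number below 1000, and that reached 1 TPM in at least 2 of the 4 libraries. TPM is a transcript's share of its library per unit of length. Of 52189 identifiers in the table, 526 had such a symbol. Of these, 326 were listed at 0 in all 4 libraries, 79 were above 0 without reaching the rule, and 121 were members. The 121 entries carry 120 symbols, since Mir677 has 2 overlapping entries, 1 of them annotated as a snoRNA. Because the rule uses the TPM values of the libraries compared, counts over the members describe them and support nothing further.

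The series compares RNA recovered with an antibody against SAFB (2 libraries) with RNA recovered with control IgG (2 libraries). SAFB, scaffold attachment factor B, is a protein of the nuclear matrix with RNA- and DNA-binding domains, and the design asks which RNAs associate with it. All cells were AML12 grown with 10% serum and 0.1 µM dexamethasone, and the labels name no genetic change between the groups. They were crosslinked with ultraviolet light, and sonicated lysate of their nuclei was divided between the antibodies. The input was not analysed here. AML12 is 1 line, derived from mice that carried a transgene for transforming growth factor alpha, and whether replicates are separate cultures is not in the labels, so p-values measure only the spread between these libraries. In a precipitate, more copies of an RNA and more protein bound to each copy cannot be told apart. All 10 hepatocyte marker genes of the fixed list were tested, and their summed level was 11518 and 11350 TPM in the SAFB libraries and 9014 and 9005 TPM in the IgG libraries. Of them, 2 were called higher (Cp and Alb), 1 lower (Trf) and 7 not called, with 1 higher and 4 lower after median centring. Over all genes tested, 29.8% were called higher and 8.3% lower, or 16.4% and 17.6% after centring. The fibroblast and endothelial lists had 0 genes tested, and the blood list had only Cd68, a macrophage gene.

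A microRNA gene is transcribed as part of a longer primary transcript, often from an intron or exon of a host gene and often together with neighbouring microRNA genes. In the nucleus the Drosha and DGCR8 proteins cut a hairpin out of that transcript, and after export Dicer cuts the hairpin to the mature microRNA. The mature strand guides Argonaute proteins to messenger RNAs that pair with its seed, bases 2 to 8. SAFB2, the paralog of SAFB, is known to help the cutting of poor hairpins that neighbour good ones, such as miR-15a beside miR-16-1. The RNA here came from nuclei, and the table's entries span hairpins, 58 to 122 bases long with a median of 87. A value can therefore come from the hairpin, from its primary transcript or from a host RNA that covers it.

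Of the 121 members, 105 matched a hairpin in RefSeq (mouse build GRCm38.p6), from which the sequences below were taken. The first group is shown because its members share 1 seed and include several of the microRNA genes that stood highest over IgG. The seed is in capitals, and each sequence is the 5p strand.
mmu-let-7a-5p: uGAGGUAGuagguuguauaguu
mmu-let-7f-5p: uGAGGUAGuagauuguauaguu
mmu-let-7c-5p: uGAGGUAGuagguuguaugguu
mmu-let-7b-5p: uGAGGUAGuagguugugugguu
mmu-let-7e-5p: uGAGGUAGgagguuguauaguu
mmu-let-7g-5p: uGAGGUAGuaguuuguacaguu
mmu-miR-98-5p: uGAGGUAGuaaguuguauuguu
The seed GAGGUAG belongs to 8 members, because Mirlet7c-1 and Mirlet7c-2 encode the same let-7c strand. Over their 22 bases, let-7a and let-7f differ at 1 base and let-7g and miR-98 at 4.

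The miR-29 strands share the seed AGCACCA and the miR-181 strands the seed ACAUUCA, with 3 members each. They are shown because members with 1 seed, and for miR-181b with 1 mature strand, had unlike values. Mir181b-1 and Mir181b-2 encode the same miR-181b strand at different positions of the genome.
mmu-miR-29a-3p: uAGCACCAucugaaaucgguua
mmu-miR-29b-3p: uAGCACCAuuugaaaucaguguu
mmu-miR-29c-3p: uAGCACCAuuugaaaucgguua
mmu-miR-181a-5p: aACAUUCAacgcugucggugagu
mmu-miR-181b-5p: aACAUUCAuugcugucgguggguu
The next strands belong to members that stood high over IgG. For miR-10a no other member shares the seed, and miR-107 has 1 close relative, miR-103, which differs at 1 base of 23.
mmu-miR-10a-5p: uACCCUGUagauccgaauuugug
mmu-miR-107-3p: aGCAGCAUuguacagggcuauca
mmu-miR-103-3p: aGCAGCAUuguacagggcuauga
The last strands are those of 3 members that were lower in the SAFB RIP.
mmu-miR-7a-5p: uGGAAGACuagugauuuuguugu
mmu-miR-34a-5p: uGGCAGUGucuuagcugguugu
mmu-miR-106b-5p: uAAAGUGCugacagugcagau
The whole hairpins of Mir29b-1, Mirlet7f-1, Mir181b-2 and Mir7-1 follow, since the table's values refer to spans of this size and not to the mature strand. Capitals mark the mature strand listed above.
Mir29b-1 hairpin: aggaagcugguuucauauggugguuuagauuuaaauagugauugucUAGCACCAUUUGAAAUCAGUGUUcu
Mirlet7f-1 hairpin: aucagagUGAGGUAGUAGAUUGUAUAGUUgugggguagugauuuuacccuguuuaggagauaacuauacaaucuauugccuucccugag
Mir181b-2 hairpin: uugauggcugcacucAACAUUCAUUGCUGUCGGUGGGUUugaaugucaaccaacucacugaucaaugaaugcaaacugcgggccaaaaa
Mir7-1 hairpin: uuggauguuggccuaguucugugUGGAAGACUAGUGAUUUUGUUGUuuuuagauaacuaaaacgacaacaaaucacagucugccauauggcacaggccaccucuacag

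The libraries differed in how evenly they measured these short entries. Of the 121 members, 0 and 2 were listed at 0 in the SAFB libraries, against 43 and 29 in the IgG libraries, and 11 were listed at 0 in both IgG libraries. The median member stood at 6.06 and 6.67 TPM in the SAFB libraries and at 1.51 and 3.83 TPM in the IgG libraries. Across members, the log2 values of the SAFB libraries correlated at 0.733 and those of the IgG libraries at 0.374. The same figures over all genes tested were 0.978 and 0.923. Among all entries of up to 130 bases, the most often repeated value above 0 was 0.636 and 1.24 TPM in the SAFB libraries and 3.75 and 2.55 TPM in the IgG libraries. Of the members above 0, 10 and 20 lay at or under that value in the SAFB libraries and 33 and 27 in the IgG libraries. The part of depth and library complexity in the results below was not tested.

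In the fit over all 16647 genes tested (limma on log2(TPM + 1), adjusted p under 0.05), 27 members were called higher in the SAFB RIP, 6 were called lower and 88 were not called. That is 22.3% of the members higher and 4.96% lower. Of all genes tested, 29.8% were called higher and 8.3% lower. The members' share of higher calls was thus below that of the genes at large, while their median log2 fold change was 0.88, against 0.46 for all genes. In 46 of the 121 members the SAFB pair lay wholly above the IgG pair, in 17 wholly below it, and in 58 the pairs overlapped. Of the 16647 genes tested, 8714 (52.3%) lay above and 3558 (21.4%) below. Centring each library on its median removes the general shift of 0.46. With it, 19 of the 121 members were called higher and 9 lower. Of the 16647 genes, 2736 (16.4%) were then called higher and 2935 (17.6%) lower. Without SAFB replicate 1 or 2 the calls were 12 higher and 0 lower each, without IgG replicate 1 they were 45 and 17, and without IgG replicate 2 they were 54 and 21. The calls over all genes moved too, to 4.61% higher and 0.042% lower without SAFB replicate 1 and 4.7% and 0.042% without SAFB replicate 2. They were 41.2% and 13.6% without IgG replicate 1 and 45.8% and 15.4% without IgG replicate 2.

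The direction of 19 members was fixed by how they entered. Of these, 16 members reached 1 TPM in both SAFB libraries and in no IgG library, and 14 of the 27 higher calls are theirs. The other 3, Mir25, Mir29c and Mir568, reached it in both IgG libraries and in no SAFB library. No p-value is given for these, nor a fold change where the IgG libraries are at 0. The remaining 102 members reached 1 TPM in libraries of both groups. Of them, 13 (12.7%) were called higher and 6 (5.88%) lower, with a median log2 fold change of 0.45. The 43 members at 1 TPM or more in all 4 libraries had 4 (9.30%) higher and 5 (11.6%) lower calls and a median of -0.22. The 269 microRNA genes numbered 1000 and above that met the same rule had 40 (14.9%) higher and 15 (5.58%) lower calls and a median of 0.31. Over all genes tested, 29.8% were called higher and 8.3% lower, with a median of 0.46. At the edge of the rule, by the second highest library, Mir181b-1 (1.02 TPM), Mir25 (1.06 TPM) and Mir24-1 (1.12 TPM) lay just inside. Mir546 (0.976 TPM), Mir27b (0.936 TPM) and Mir26b (0.912 TPM) lay just outside.

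**Figure D1:**
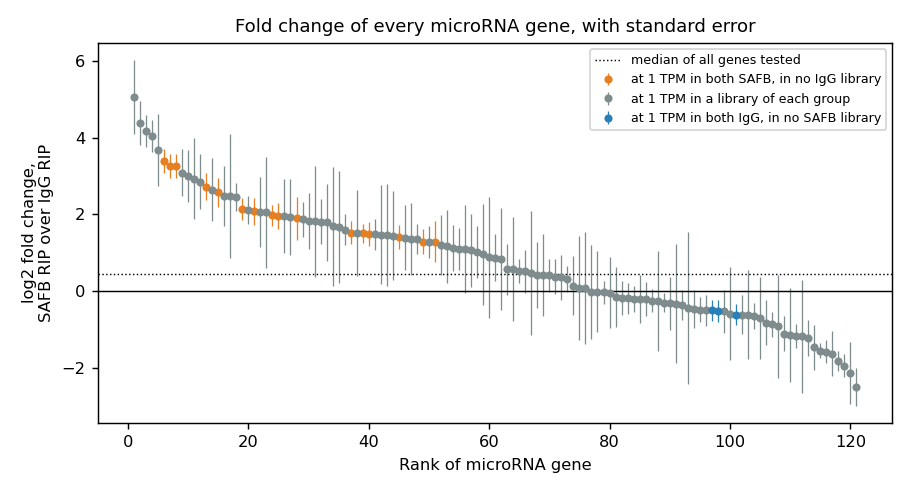
Fold change of each of the 121 members, ranked from highest to lowest (vertical axis: log2 fold change of SAFB RIP over IgG RIP on the log2(TPM + 1) scale; bars: standard error; dotted line: median of all genes tested). Colours show how a member entered. The 16 that entered through the SAFB libraries alone lie above the line and the 3 that entered through the IgG libraries alone lie below it, and for members at 0 in IgG the height depends on the pseudocount.

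The miR-29a and miR-29b-1 genes, whose mature strands are known repressors of collagen and other matrix genes, had some of the highest values over IgG. Mir29a (chr6:31062660-31062747, minus strand) stood at 52.6 and 55.3 TPM in the SAFB libraries and at 1.17 and 3.31 TPM in the IgG libraries. Mir29b-1 (chr6:31063023-31063093, minus strand) stood at 36.4 and 30.2 TPM in the SAFB libraries and at 0 and 1.69 TPM in the IgG libraries. For both, each SAFB library was far above each IgG library. The log2 fold changes were 4.17 ± 0.42 (SE, limma adjusted p = 0.00639) and 4.38 ± 0.57 (limma adjusted p = 0.00966). The long noncoding RNA Gm27019 (chr6:31063092-31063495, minus strand) lies just upstream and shares only its last 2 bases with Mir29b-1, while Mir29a begins 345 bases further on. Gm27019 stood at 793 and 566 TPM in the SAFB libraries and at 42.7 and 32.3 TPM in the IgG libraries, a log2 fold change of 4.14 ± 0.23 (limma adjusted p = 0.00378). The relatives at another locus were low in every library. Mir29c stood at 0.288 and 0.622 TPM in the SAFB libraries and at 1.31 and 1.13 TPM in the IgG libraries, and Mir29b-2 stayed under the rule. Because Mir29c entered through the IgG libraries alone, its direction was fixed by the rule, and a difference in recovery between the loci was not tested. Mir29c lies whole in an exon of the noncoding A330023F24Rik. That host stood at 70.2 and 74.5 TPM in the SAFB libraries and at 20.0 and 39.4 TPM in the IgG libraries. It was called higher (log2 fold change 1.33 ± 0.34, limma adjusted p = 0.0404), though not after median centring (limma adjusted p = 0.0868).

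The let-7 genes, whose strands hold back proliferation, had 8 members. Of these, 4 were called higher, 0 lower and 4 were not called, beside 29.8% of all genes called higher. Of the 4, Mirlet7a-1 and Mir98 entered through the SAFB libraries alone, and 2 calls passed after median centring, against 16.4% of all genes. Mirlet7f-1 (chr13:48537829-48537917, minus strand) stood at 33.7 and 29.4 TPM in the SAFB libraries and at 0 and 5.45 TPM in the IgG libraries, and its groups did not overlap (log2 fold change 3.68 ± 0.94, limma adjusted p = 0.0406). Mirlet7a-1, its neighbour on the same transcript, stood at 7.59 and 9.90 TPM in the SAFB libraries and was listed at 0 in both IgG libraries. Both lie whole in an exon of the long noncoding RNA 6720427I07Rik, which stood at 80.6 and 74.4 TPM in the SAFB libraries and at 11.1 and 30.7 TPM in the IgG libraries. That host was called higher (log2 fold change 2.0 ± 0.48, limma adjusted p = 0.0353), though not after median centring (limma adjusted p = 0.0535). The third microRNA of the transcript, Mirlet7d, stayed under the rule, at 0.447 and 0.664 TPM in the SAFB libraries and 0.597 and 0.517 TPM in the IgG libraries.

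The other let-7 members varied by locus. Mirlet7c-2 stood at 57.2 and 85.2 TPM in the SAFB libraries and at 34.7 and 16.9 TPM in the IgG libraries, and Mirlet7b, beside it, at 29.2 and 47.2 TPM and at 10.4 and 20.3 TPM in the same order of groups. Neither overlapped between the groups. Mirlet7c-2 was called (log2 fold change 1.49 ± 0.41, limma adjusted p = 0.0471) but not after median centring (limma adjusted p = 0.113), and Mirlet7b was not called (1.29 ± 0.42, limma adjusted p = 0.0709). Mirlet7c-1 stood at 21.3 and 23.3 TPM in the SAFB libraries and at 1.59 and 24.3 TPM in the IgG libraries, so its IgG libraries lay on either side of the SAFB pair. Its neighbour Mir99a was higher, at 9.58 and 16.3 TPM in the SAFB libraries against 0 and 2.49 TPM in the IgG libraries (log2 fold change 2.85 ± 0.72, limma adjusted p = 0.0385; 0.0509 after centring). Mirlet7e stood at 27.8 and 29.8 TPM in the SAFB libraries and at 45.5 and 23.9 TPM in the IgG libraries, with overlap, although its host Spaca6 was called higher (log2 fold change 1.70 ± 0.12, limma adjusted p = 0.00468). Mirlet7g was not called, and Mir98 reached 2.18 and 2.62 TPM in the SAFB libraries against 0 and 0.390 TPM in the IgG libraries.

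The miR-181 genes, best known from lymphocyte development, showed the highest fold change of the 121 members. Mir181b-2 (chr2:38853830-38853918, plus strand) stood at 85.7 and 89.5 TPM in the SAFB libraries, the highest member values there, and at 0 and 5.94 TPM in the IgG libraries. The groups were wide apart (log2 fold change 5.07 ± 0.96, limma adjusted p = 0.0202). Mir181a-2, about a kilobase upstream, stood at 19.7 and 14.2 TPM in the SAFB libraries and at 3.45 and 6.69 TPM in the IgG libraries (log2 fold change 1.60 ± 0.41, limma adjusted p = 0.0408; 0.0841 after centring). No same-strand gene covers either. The nearest, the antisense RNA Nr6a1os, ends 365 bases before Mir181a-2 and was called higher by 0.89 ± 0.15 (limma adjusted p = 0.0146; 0.0837 after centring). Mir181b-1, with the same mature strand on chromosome 1, stood at 0.493 and 1.02 TPM in the SAFB libraries and at 1.65 and 0.471 TPM in the IgG libraries. The copy on chromosome 2 was thus high in both SAFB libraries and the copy on chromosome 1 was low in all 4.

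Mir10a, a microRNA gene inside the HoxB cluster (chr11:96317165-96317274, plus strand), stood at 32.8 and 30.3 TPM in the SAFB libraries and at 0.477 and 1.62 TPM in the IgG libraries. The groups did not overlap (log2 fold change 4.05 ± 0.41, limma adjusted p = 0.00651). Hoxb4, a developmental transcription factor gene that begins 993 bases downstream, moved the same way, at 71.5 and 67.8 TPM in the SAFB libraries and 6.32 and 11.8 TPM in the IgG libraries (log2 fold change 2.87 ± 0.32, limma adjusted p = 0.00760). In the cluster of Mir23a, Mir27a and Mir24-2, all 3 members lay above both IgG libraries. Mir24-2 was called, at 12.3 and 14.8 TPM in the SAFB libraries against 0 and 1.90 TPM in the IgG libraries (log2 fold change 3.09 ± 0.60, limma adjusted p = 0.0217). Mir27a (2.49 ± 0.78, limma adjusted p = 0.0665) and Mir23a (1.81 ± 0.59, limma adjusted p = 0.0716) were not. In the sister cluster, Mir27b stayed just under the rule, and Mir23b and Mir24-1 had log2 fold changes of -0.04 and -0.36 and were not called. Mir23b, at 50.8 and 53.8 TPM in the SAFB libraries and 71.9 and 40.0 TPM in the IgG libraries, had the highest mean level of these 6 genes.

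Of the members in an intron or at the edge of an exon, some were listed at 0 in both IgG libraries. Mir107, in an intron of Pank1, a gene of coenzyme A synthesis, stood at 8.52 and 10.7 TPM in the SAFB libraries and was listed at 0 in both IgG libraries. Pank1 itself was not called (log2 fold change 0.03 ± 0.20). The close relative Mir103-2, in an intron of Pank2, stood at 9.97 and 10.5 TPM in the SAFB libraries and at 2.44 and 4.56 TPM in the IgG libraries, without overlap but not called (1.36 ± 0.38, limma adjusted p = 0.0515). Mir452, in an intron of Gabre, stood at 7.50 and 9.80 TPM in the SAFB libraries and was listed at 0 in both IgG libraries, while Mir224 in the same gene overlapped between the groups. Mir697, in an intron of the splicing factor gene Sf3a3, was higher by 3.0 ± 0.69 (limma adjusted p = 0.0309), as was Sf3a3 by 1.63 ± 0.14 (limma adjusted p = 0.00536). Mir30b, whose last 16 bases lie in an exon of the noncoding Gm26621, stood at 3.62 and 6.67 TPM in the SAFB libraries and at 0 in both IgG libraries. Gm26621 stood at 54.3 and 50.1 TPM in the SAFB libraries and at 0.621 and 2.38 TPM in the IgG libraries, a log2 fold change of 4.50 ± 0.45 (limma adjusted p = 0.00632).

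The calls of single members rested on few libraries. With either SAFB library left out, the calls of Mir29a, Mir29b-1, Mir10a, Mir181b-2, Mirlet7f-1, Mirlet7c-2, Mir24-2, Mir697 and of all 6 lower entries were lost. The 12 member calls that passed without each SAFB library in turn were all under 0.1 TPM in both IgG libraries, 11 of them at 0. With a pseudocount of 0.1 TPM the calls of Mir181b-2, Mirlet7f-1, Mirlet7c-2, Mir24-2, Mir697 and the miRNA entry of Mir677 were lost, while Mir29a, Mir29b-1 and Mir10a kept theirs.

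**Figure D2:**
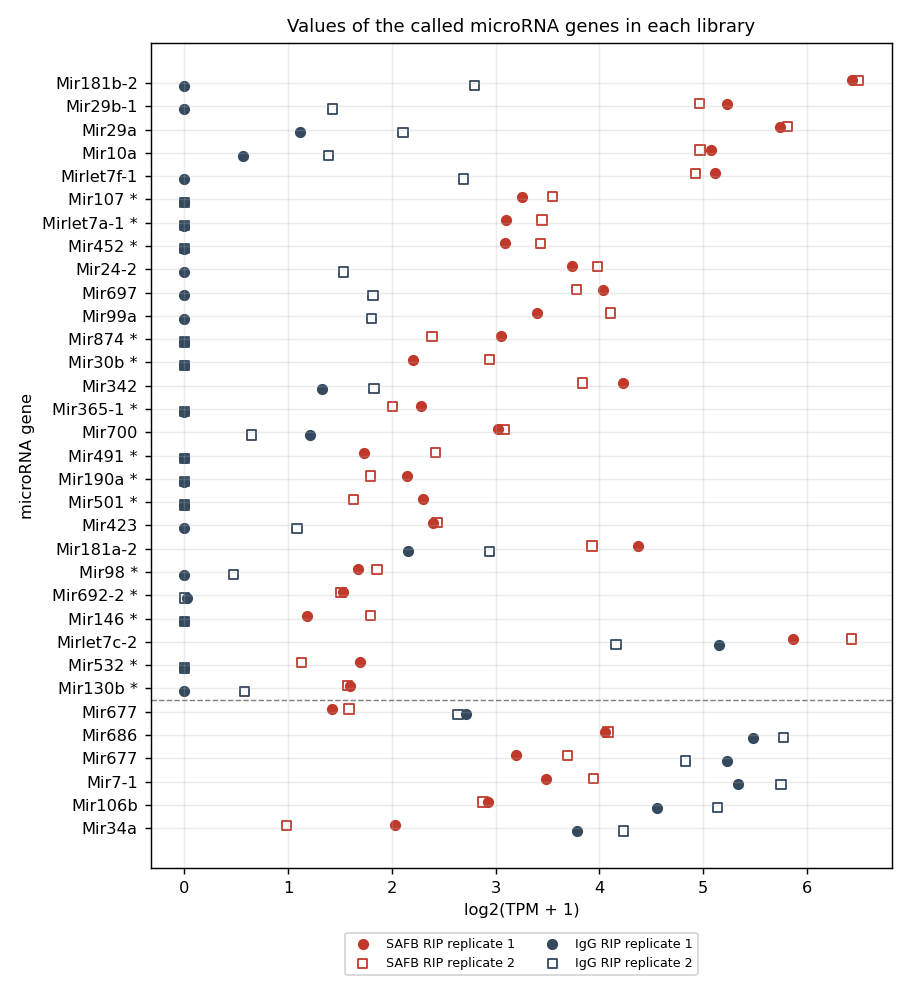
Values of the 33 called members in each library (horizontal axis: log2(TPM + 1); red: SAFB RIP; blue: IgG RIP; circles and squares: replicates 1 and 2). An asterisk marks members that entered through the SAFB libraries alone, and the dashed line divides the 27 higher from the 6 lower members. The blue points of many higher members lie at 0, while the lower members and 6 of the higher members are above 0 in all 4 libraries.

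The 6 lower members, at 5 loci, all had signal in every library, as did 6 of the 27 higher members. Mir34a, a known target of p53, stood at 3.10 and 0.983 TPM in the SAFB libraries and at 12.8 and 17.8 TPM in the IgG libraries (log2 fold change -2.50 ± 0.49, limma adjusted p = 0.0216). Mir106b, in an intron of the replication gene Mcm7, stood at 6.60 and 6.35 TPM in the SAFB libraries and at 22.5 and 34.2 TPM in the IgG libraries (-1.94 ± 0.31, limma adjusted p = 0.0141). Its groups were wide apart, while Mcm7 was not called (-0.21 ± 0.10, limma adjusted p = 0.159). After median centring Mcm7 was called lower as well (-0.67, limma adjusted p = 0.0144). Mir25, of the same transcript, lay near 1 TPM or under it in all 4 libraries.

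Mir7-1 (chr13:58392779-58392886, minus strand) lies in an intron of Hnrnpk, which encodes an RNA-binding protein. The microRNA gene stood at 10.2 and 14.4 TPM in the SAFB libraries and at 39.4 and 52.8 TPM in the IgG libraries, and was called lower (log2 fold change -1.83 ± 0.27, limma adjusted p = 0.0123). Hnrnpk stood at 454 and 451 TPM in the SAFB libraries and at 292 and 338 TPM in the IgG libraries, and was called higher (0.52 ± 0.11, limma adjusted p = 0.0263). Member and host thus had calls of opposite sign. After median centring Mir7-1 stayed lower at -2.29 (limma adjusted p = 0.00663), while Hnrnpk was at 0.06 and not called.

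The other lower entries lay in hosts that were lower too. Mir686, whole in an exon of the proteasome gene Psmb5, stood at 15.6 and 15.9 TPM in the SAFB libraries and at 43.7 and 53.7 TPM in the IgG libraries (log2 fold change -1.56 ± 0.19, limma adjusted p = 0.00868). Psmb5 had a log2 fold change of -1.37 ± 0.21 (limma adjusted p = 0.0124), so the 2 values were close. Mir686 was the only 1 of the 89 members with a tested host whose TPM was above that of the host in both SAFB libraries. The 2 entries of Mir677, in an intron of the ATP synthase gene Atp5b, had log2 fold changes of -1.58 ± 0.30 (limma adjusted p = 0.0201) and, for the entry annotated as miRNA, -1.17 ± 0.31 (limma adjusted p = 0.0449), against -0.74 ± 0.10 for Atp5b (limma adjusted p = 0.0103). The call of the miRNA entry was lost without the filter on low values (limma adjusted p = 0.0979) and with the replicate block (limma adjusted p = 0.108).

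By position in GENCODE M21 (mm10), 31 members overlap an exon of a same-strand gene, 62 lie in an intron of one and 28 in none. Of the 31, 17 lie whole in the exon, and 4 share 10 bases or fewer with it, among them Mir29b-1 and Mir24-2. The 68 members with a protein-coding host had 13 higher and 5 lower calls and a median log2 fold change of 0.38. The 25 with a noncoding host had 8 higher calls, 1 lower call and a median of 1.45, and the 28 without a host 6, 0 and 1.55. In this order of groups, 19.1%, 32.0% and 21.4% were called higher, beside 29.8% of all genes. Called lower were 7.35%, 4.0% and 0.0%, beside 8.3% of all genes. These medians and shares were not tested against each other.

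The rule did not use the hosts' own values. A host is counted only because its member met the rule, however, so counts over hosts are descriptive too. The hosts were tested in the same fit. Per member 1 host was kept, an exonic overlap before an intronic one and then the gene with the higher mean TPM. There were 75 distinct hosts, of which 72 were tested, with 27 called higher, 7 lower and 38 not called. Of 14 noncoding hosts tested, 9 were higher and 0 lower. Of 58 protein-coding hosts, 18 were higher and 7 lower. Beside these stand 29.8% higher and 8.3% lower over all genes tested. After median centring the noncoding hosts had 2 higher calls, Gm27019 and Gm26621, and 0 lower, and the protein-coding hosts had 9 higher and 15 lower. The shares over all genes were then 16.4% higher and 17.6% lower. Gm26621 is the host of Mir30b, which entered through the SAFB libraries alone. With every same-strand gene that overlaps a member, 17 noncoding genes were tested, with 11 higher and 0 lower, and 4 higher and 0 lower after centring. The calls added were those of Mir22hg and of Gm13648, which covers Mir200a and Mir200b. Without either SAFB library, 0 of the 34 host calls passed. Over all genes, 769 and 785 of 6346 calls passed then. Hosts overlap their members, so the same reads could count for both, and the use of strand in counting is not given in the sources used here.

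Of the higher members that entered through both groups, 4 had a protein-coding host, with 2 of these hosts called higher, and 5 had a noncoding host. The noncoding host was called higher for 3 of the 5, not called for Mir24-2 and not analysed for Mirlet7c-2. Across the 89 members with a tested host, member and host log2 fold changes correlated at r = 0.47 (Spearman rho = 0.36), given as a description since all values come from the same 4 libraries and some member values were fixed in direction by the rule, and 52 of the 89 had the same sign. Some hosts moved without their microRNA. Spaca6 was higher while Mir99b (-0.49) and Mirlet7e (-0.19) were not called. Srebf2, the regulator of cholesterol synthesis, was lower (-1.22 ± 0.14, limma adjusted p = 0.00788), while Mir33, its intronic microRNA that restrains cholesterol export, stood at 3.65 and 1.76 TPM in the SAFB libraries and 1.68 and 0 TPM in the IgG libraries and was not called.

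**Figure D3:**
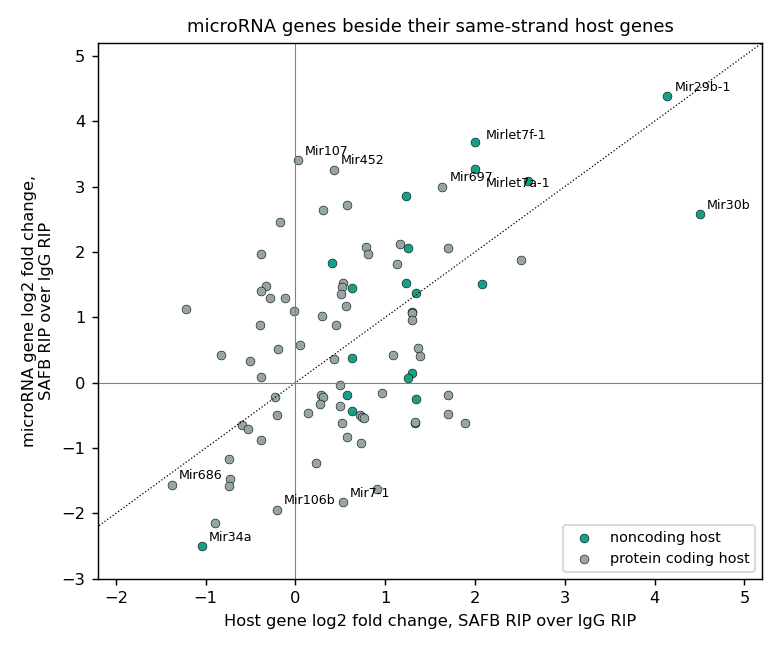
Members beside their same-strand hosts (horizontal axis: host log2 fold change, vertical axis: member log2 fold change, both SAFB RIP over IgG RIP; dotted line: equal values; green: noncoding hosts; grey: protein-coding hosts). Mir29b-1 lies close to the line of equal values, Mir107 and Mir452 lie high over hosts that were not called, and Mir7-1 lies below 0 with a host above 0. The heights of Mir107, Mir452, Mir30b and Mirlet7a-1, at 0 in both IgG libraries, depend on the pseudocount.

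Grouped within 10 kb on 1 strand, 42 members fell into 18 clusters. In 9 clusters all members had positive log2 fold changes, in 4 all were negative, and 5 held both signs. In the clusters of Mir29a and Mir29b-1 and of Mir181a-2 and Mir181b-2, both members entered through libraries of both groups and were called higher. In some mixed clusters the replicates of a group lay far apart. Mir125a stood at 42.5 and 1.27 TPM in the SAFB libraries and at 1.64 and 1.17 TPM in the IgG libraries, beside Mir99b and Mirlet7e with negative values. Mir20a stood at 0.271 and 15.3 TPM in the SAFB libraries and at 0.261 and 29.2 TPM in the IgG libraries, beside Mir19a at 16.9 and 0.718 TPM and at 1.30 and 0.799 TPM in the same order of groups. For Mir20a, replicate 2 of both groups was the high one. In both cases the spread within a group was larger than the difference between the groups.

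**Figure D4:**
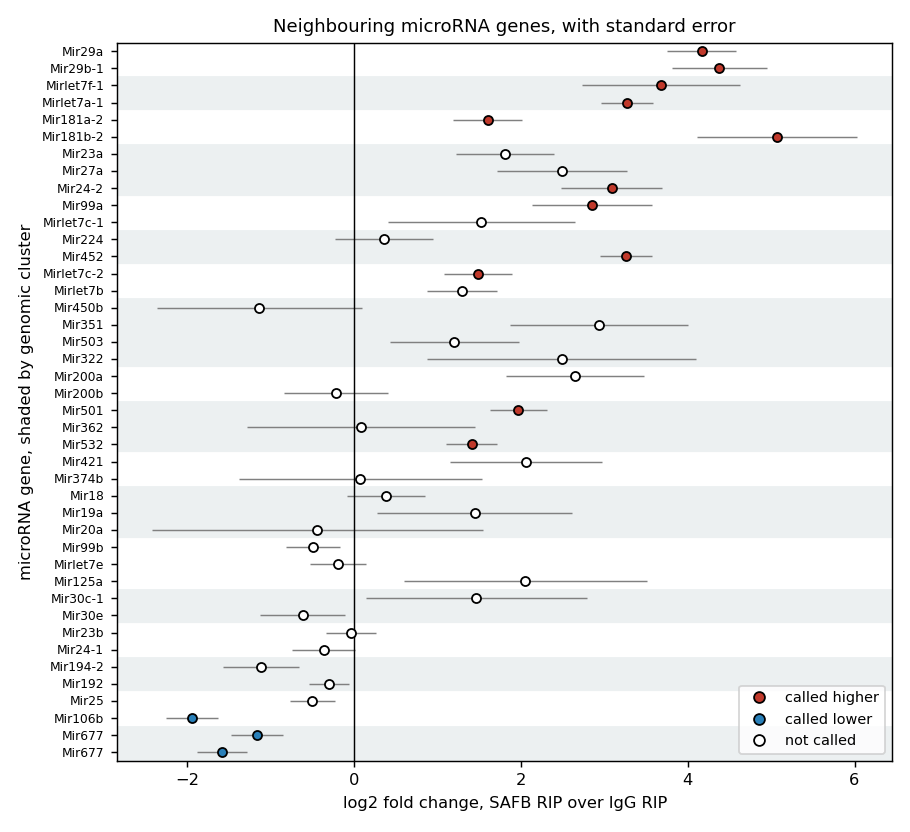
Log2 fold change of SAFB RIP over IgG RIP for the 42 members in 18 genomic clusters, with standard error (horizontal axis; alternate shading marks clusters; red: called higher; blue: called lower; open: not called). Mir29a and Mir29b-1 lie close together, while Mir181a-2 and Mir181b-2, both called, lie apart. The positions of Mirlet7a-1, Mir452, Mir501 and Mir532, at 0 in both IgG libraries, depend on the pseudocount.

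The miR-15/16 genes, which restrain the cell cycle, had 3 members, and 0 were called, beside 29.8% of all genes called higher and 8.3% lower. Mir15a, in an intron of the noncoding Dleu2, stood at 5.42 and 20.2 TPM in the SAFB libraries and at 3.75 and 1.28 TPM in the IgG libraries, so the groups did not overlap (log2 fold change 1.83 ± 0.74, limma adjusted p = 0.118). Its neighbour Mir16-1 stayed under the rule, at 0.701 and 0.000582 TPM in the SAFB libraries and at 0 and 0.301 TPM in the IgG libraries. In the IgG libraries Mir15a lay at or under the most often repeated value of short entries, 3.75 and 2.55 TPM. Its SAFB replicates lay far apart. Whether the 2 hairpins differ in level cannot be read from these values and was not tested. Mir322 stood at 36.9 and 20.8 TPM in the SAFB libraries and at 0 and 25.2 TPM in the IgG libraries, with overlap. Mir15b stood at 0.964 and 1.24 TPM in the SAFB libraries and at 9.36 and 0 TPM in the IgG libraries, and Mir16-2 was under 1 TPM in all 4.

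The microRNA genes abundant in hepatocytes had 6 members, and 0 were called, beside 29.8% of all genes called higher and 8.3% lower. Their median log2 fold change was -0.59, against 0.46 for all genes. Mir122, the main microRNA of liver, stood at 17.7 and 12.0 TPM in the SAFB libraries and at 0 and 22.3 TPM in the IgG libraries, so 1 IgG library lay above both SAFB libraries and 1 below. Mir192 stood at 32.2 and 45.0 TPM in the SAFB libraries and at 41.6 and 53.3 TPM in the IgG libraries, with overlap (-0.30 ± 0.24, limma adjusted p = 0.366). Its neighbour Mir194-2 lay below both IgG libraries (-1.11 ± 0.46, limma adjusted p = 0.122). Mir22 stood at 19.3 and 26.0 TPM in the SAFB libraries and at 31.7 and 55.2 TPM in the IgG libraries (-0.87 ± 0.33, limma adjusted p = 0.104; 0.0299 after centring). It lies whole in exons of both Mir22hg, called higher by 0.99 ± 0.13 (limma adjusted p = 0.0103), and Tlcd2, not called at -0.38 ± 0.15. After centring Tlcd2 was called lower (-0.84, limma adjusted p = 0.0229) and Mir22hg higher (0.53, limma adjusted p = 0.0475). Mir193a had 2.09 and 0 TPM in the SAFB libraries and 15.0 and 0 TPM in the IgG libraries. Mir21a stayed between 0.269 and 1.05 TPM.

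Beside the counts of the remaining lists stand 29.8% higher and 8.3% lower calls over all genes tested. The miR-17-92 cluster and its paralogs had 5 members with 0 higher calls and 1 lower, Mir106b. Its Mir18 stood at 17.6 and 35.0 TPM in the SAFB libraries and at 13.8 and 25.8 TPM in the IgG libraries, and overlapped. The miR-30 genes had 4 members, with Mir30b alone called. Mir30c-1 and Mir30e, in introns of Nfyc, overlapped between the groups, as did Mir30a. Of the Sfmbt2 intron families, 80 of 81 entries were listed at 0 in every library. By position the 1 member, Mir466q, does not lie in Sfmbt2 but in an intron of Tnik on chromosome 3. Mir466q stood at 18.9 and 10.4 TPM in the SAFB libraries and at 17.2 and 0 TPM in the IgG libraries. Tnik was called higher (log2 fold change 1.13 ± 0.16, limma adjusted p = 0.0112). Of the imprinted Dlk1-Dio3 cluster, 46 of 49 entries were listed at 0, and 0 were members. The microRNA genes of blood, muscle, neural and vessel cells had 0, 1, 1 and 1 members (Mir1b, Mir128-1 and Mir126b), with 0 called. Mir1b lies on the strand opposite Mir1a-2, which was listed at 0 in all 4 libraries. On its own strand it lies in an intron of Mib1, which was called lower (log2 fold change -0.50 ± 0.11, limma adjusted p = 0.0259). Mir126b lies opposite Mir126a, which was at 0.254 TPM in SAFB replicate 1 and at 0 elsewhere. Mir455, in an intron of Col27a1, was among the 10 with the highest mean level, at 24.6 and 26.5 TPM in the SAFB libraries and 46.2 and 19.2 TPM in the IgG libraries, and overlapped.

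Hairpin composition is given as a description. The median GC content was 46.5% in the 25 higher members with a hairpin, 47.4% in the 6 lower members and 50.3% in the 74 not called. Across the 105 hairpins, the log2 fold change had a Spearman rho of -0.11 with GC content and of -0.11 with predicted folding energy per base. On the other strand, 10 members are covered by another microRNA entry. For 5 of these that entry was listed at 0 in all 4 libraries.

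The genes that make and use microRNAs, which the rule did not touch, had 32 of 34 tested. Of these, 12 were called higher, 2 lower and 18 were not called. Over all genes tested, 29.8% were called higher and 8.3% lower, or 16.4% and 17.6% after median centring. The median log2 fold change of the 32 was 0.45, against 0.46 for all genes. After median centring 7 were higher and 8 lower, and of the 14 calls 1 passed without either SAFB library, while 22 genes were called without IgG replicate 2. Of the nuclear Microprocessor, Dgcr8 stood at 73.6 and 72.0 TPM in the SAFB libraries and at 40.1 and 35.5 TPM in the IgG libraries (log2 fold change 0.93 ± 0.13, limma adjusted p = 0.0118; 0.0720 after centring). Drosha, its nuclease, stood at 59.4 and 60.9 TPM in the SAFB libraries and at 33.1 and 57.9 TPM in the IgG libraries, with no overlap, and was not called (0.45 ± 0.29, limma adjusted p = 0.279). The helicases that assist it, Ddx5 (1.21 ± 0.12, limma adjusted p = 0.00630) and Ddx17 (0.66 ± 0.10, limma adjusted p = 0.0128), were higher, and Ddx17 was not called after centring (limma adjusted p = 0.235).

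In the cytoplasmic steps, Dicer1 stood at 98.0 and 97.4 TPM in the SAFB libraries and at 32.9 and 51.8 TPM in the IgG libraries (log2 fold change 1.22 ± 0.24, limma adjusted p = 0.0222; 0.0514 after centring). Its partner gene Tarbp2 was lower (-0.66 ± 0.15, limma adjusted p = 0.0286), as was Khsrp, whose protein binds let-7 precursors (-0.67 ± 0.18, limma adjusted p = 0.0462). Tnrc6a, a partner of Argonaute in silencing, stood at 1063 and 1037 TPM in the SAFB libraries and at 166 and 161 TPM in the IgG libraries, a log2 fold change of 2.67 ± 0.09 (limma adjusted p = 0.00373). Its groups were wide apart, and it kept its call without either SAFB library. The Argonaute genes Ago1, Ago2 and Ago3 were not called, though after median centring Ago2 was called lower (-0.87, limma adjusted p = 0.0176). Hnrnpa1, which binds the miR-18a precursor, was called at 0.44 ± 0.10 (limma adjusted p = 0.0276), a shift that median centring brings to -0.02.

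**Figure D5:**
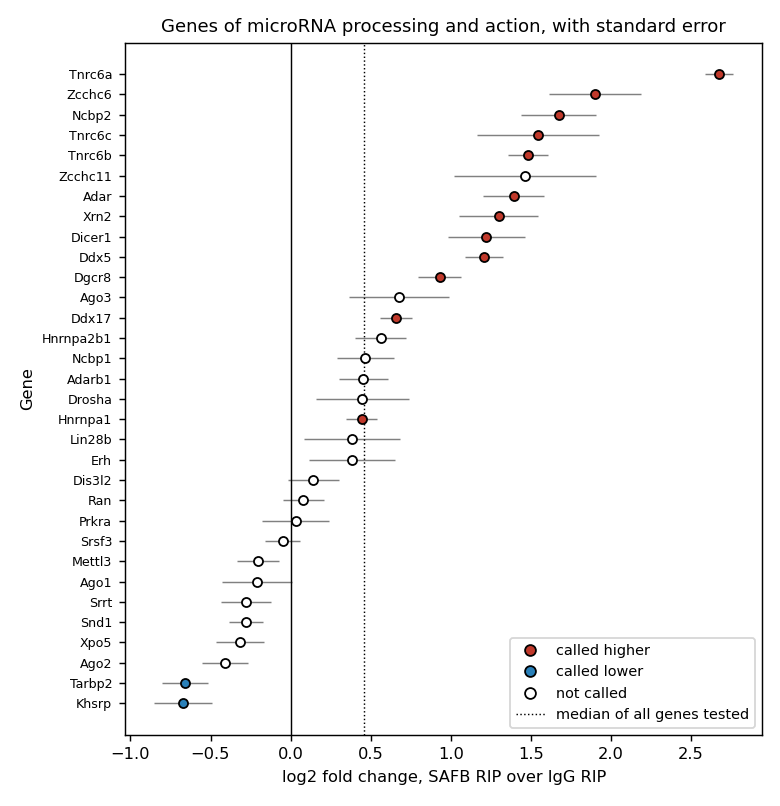
Log2 fold change of SAFB RIP over IgG RIP for 32 genes of microRNA processing and action, with standard error (red: called higher; blue: called lower; open: not called; dotted line: median of all genes tested). Tnrc6a stands at 2.67, and Drosha and Hnrnpa1 lie at the median of all genes.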

How the data were processed

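The authors deposited 1 table of TPM values for 2 SAFB RIP and 2 IgG RIP libraries. The tools StringTie, HISAT2, HTSeq and DESeq2 and the build mm10 stand in the submitters' processing notes without versions. Which of them made the TPM values, on which annotation release and with what use of strand, is not given in the sources used here. Ribosomal RNA was depleted and libraries were strand-specific, per the labels' protocols. TPM keeps no read depth, so depth is unknown and intervals for counting error are left out. Overlapping and antisense genes, and copies with near-identical sequence, are uncertain.

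Genes at 1 TPM or more in at least 2 libraries (16647) were fitted with limma 3.58.1 in R 4.3.3 on log2(TPM + 1), which understates changes of low genes. Variances were moderated with a trend (residual degrees of freedom 2, prior 2.5), and p-values were two-sided, Benjamini-Hochberg adjusted over all genes, threshold 0.05. An exact permutation test of these groups cannot go below a two-sided p of 0.333, so none was used. Positions come from GENCODE M21 (mm10), sequences from RefSeq (a hairpin match needs 80% of the shorter span), and folding energies from RNAfold 2.7.2. A host is a same-strand gene that overlaps the entry, 1 per member (exonic before intronic, then the higher mean TPM). The hosts AC157910.3, Lncppara and AL805899.1 were not analysed here.

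The members and lists were chosen with earlier results of these data known. Named were the 10 members highest in mean TPM, up to 10 called members per direction by fold change, the leading members of each list, their hosts, the leading processing genes, and the entries at the edge of the rule. Other names were added after their values were seen. Alternatives covered the pseudocount, the filter, the scaling, the variance trend, the replicate block and leaving out each library.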

Additional observations from a re-analysis of the deposited data

How the results depend on the processing

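Against 27 members called higher, a pseudocount of 0.1 TPM gave 17, a filter of a mean of 5 TPM gave 12 and quantile normalization gave 15. The count of lower calls, 6, was 16 under quantile normalization. The median log2 fold change, 0.88, was 1.52 with a pseudocount of 0.1 TPM, 0.36 with one of 5 TPM and 0.055 under quantile normalization. Leaving out each library in turn, on the same 16647 genes and assuming that the lone library varies like the other group, gave 12 to 54 higher and 0 to 21 lower calls. There were 12 higher and 0 lower without SAFB replicate 1, and 12 and 0 without SAFB replicate 2. There were 45 and 17 without IgG replicate 1, and 54 and 21 without IgG replicate 2. The 14 calls among processing genes then ranged over 1 to 22. Same-numbered libraries showed no shared deviation (correlation -0.025), and the labels do not say whether equal numbers mark a shared lysate. With a replicate block there were 32 higher and 6 lower calls. Causes were not tested, other than that fewer members enter under the stricter filter.

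Of the 48 named members, those that changed sign were all uncalled. Under a pseudocount of 0.1 TPM, Mir15b was at 0.29 and Mir30a at 0.36. Under median centring, Mir18 was at -0.082 and Mir1b at -0.14. Under quantile normalization they were at -0.055 and -0.25, and Mir1b was at -0.0037 after rescaling without abundant structured RNAs. Without 1 library each, the log2 fold change ranged over -0.58 to 3.96 for Mir122, -0.96 to 0.022 for Mir128-1, -2.31 to 1.07 for Mir15b, -0.10 to 0.85 for Mir18, -0.61 to 0.24 for Mir181b-1, -3.18 to 0.81 for Mir193a, -0.24 to 3.14 for Mir19a, -2.73 to 1.85 for Mir20a, -0.45 to 0.38 for Mir23b, -0.79 to 0.060 for Mir24-1, -1.35 to 1.31 for Mir30a, -0.47 to 3.39 for Mir30c-1, -0.83 to 0.39 for Mir455, -0.27 to 3.91 for Mir466q, -0.12 to 3.17 for Mirlet7c-1 and -0.64 to 0.25 for Mirlet7e.

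TPM carries no depth, so low members cannot be given a counting error. The exact zeros of the IgG libraries leave no spread for 11 members, whose calls rest on the SAFB spread and the variance prior. With 2 libraries a group, a member that was not called was not shown to be equal between the groups.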

Other observations

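Further members stood higher in the SAFB RIP outside the lists. Mir342, in an intron of Evl, stood at 17.8 and 13.3 TPM in the SAFB libraries and at 1.51 and 2.55 TPM in the IgG libraries (log2 fold change 2.45 ± 0.37, limma adjusted p = 0.0128), while Evl was not called (-0.17 ± 0.19). Mir423, in an intron of Nsrp1, a splicing regulator gene, stood at 4.26 and 4.42 TPM in the SAFB libraries and at 0 and 1.12 TPM in the IgG libraries (1.87 ± 0.46, limma adjusted p = 0.0366; 0.0672 after centring). Nsrp1 moved the same way (2.51 ± 0.55, limma adjusted p = 0.0277). Mir700, partly in an exon of Rcan3, stood at 7.11 and 7.47 TPM in the SAFB libraries and at 1.32 and 0.567 TPM in the IgG libraries (2.12 ± 0.36, limma adjusted p = 0.0158). These members were named after their values were seen.

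On the X chromosome, Mir501 and Mir532, both in introns of Clcn5, stood at 3.94 and 2.10 TPM and at 2.23 and 1.19 TPM in the SAFB libraries, and both were listed at 0 in the IgG libraries. Mir362, between them, stood at 3.13 and 3.33 TPM in the SAFB libraries and at 15.0 and 0 TPM in the IgG libraries. Clcn5 was not called (-0.38 ± 0.25).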
